A study of Mus musculus with 9 samples.

Results

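Expression of 8 genes of the urothelium, the epithelium that lines the renal pelvis and the urinary tract, was followed in mouse kidney RNA. The set comprised 5 uroplakin genes (Upk1a, Upk1b, Upk2, Upk3a and Upk3b) and 3 genes of basal urothelial cells (Krt5, Krt15 and Trp63), picked by symbol from a count table of 56923 genes. All 8 were found once in the table. Kidneys of wild-type mice gave 9 libraries in 3 groups of 3. AKI_PTPi_mEVs mice had acute kidney injury from ischemia-reperfusion and were given extracellular vesicles from milk that carried PTP1B siRNA, which targets the phosphatase encoded by Ptpn1. AKI_PBS mice had the same injury and received phosphate-buffered saline. Sham mice underwent surgery with no ischemia-reperfusion and are also labelled with PBS as treatment. None of the groups analysed here received empty vesicles or a control siRNA, so vesicle and siRNA cannot be told apart. The sources used here give no age, sex, time after injury or animal identity. The p-values therefore measure the spread between these libraries, which may be partly technical.

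Uroplakins are membrane proteins that assemble into the rigid plaques covering the luminal face of superficial urothelial cells. The tetraspanins Upk1a and Upk1b escort their partners to the cell surface: Upk1a pairs with Upk2, and Upk1b pairs with Upk3a or Upk3b. Below the superficial cells, basal cells rest on the basement membrane, carry the keratins Krt5 and Krt15, and depend on p63, the transcription factor encoded by Trp63. Upk1b and Upk3b are also known from mesothelium, the sheet of cells covering abdominal organs.

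Library totals lay between 9467851 and 11389479 counts. All 9 genes of a kidney marker list passed the low-count filter, and their summed level was 7652 to 9592 CPM (counts scaled to library size with TMM factors) in AKI_PTPi_mEVs libraries, 4777 to 7179 CPM in AKI_PBS libraries and 11157 to 12072 CPM in sham libraries. Ptpn1 was lower in AKI_PTPi_mEVs than in AKI_PBS (log2 fold change -0.53 ± 0.15 (SE), edgeR adjusted p = 0.00862) and higher in AKI_PBS than in sham (0.71 ± 0.15, edgeR adjusted p = 0.0012). Genes were called at an edgeR quasi-likelihood adjusted p under 0.05 over 17036 tested genes. All 8 urothelial genes passed the filter, although Upk2 reached its level of 0.921 CPM in only 3 libraries.

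Injury with PBS went with low uroplakin RNA. In AKI_PBS kidneys against sham kidneys, 5 of the 8 genes fell (Upk1a, Upk3a, Upk3b, Krt15 and Trp63), 1 rose (Krt5), and Upk1b and Upk2 did not pass the test. Of all tested genes, 55.7% were called in this comparison, 27.9% lower and 27.8% higher. Counted in either direction, 6 called genes of 8 is thus not far from that background. By TMM-scaled CPM, 7 of the 8 were lower and 1 was higher without overlap between the groups, against 31% and 31.2% of all tested genes. For Trp63 and Upk2 this depended on scaling. Trp63 overlapped in raw counts (15 in AKI_PBS replicate 1, 14 in sham replicate 3) and in CPM by library totals alone (1.37 and 1.33). Upk2 tied in raw counts, with 6 in replicate 3 of both groups. The median log2 fold change of the 8 genes was -1.54, against 0.03 for all tested genes. In kidney RNA, fewer urothelial cells in the sampled tissue and less RNA per cell cannot be told apart.

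Upk3a, the plaque subunit that pairs with Upk1b, had 43, 9 and 23 counts in AKI_PBS libraries and 221, 199 and 215 counts in sham libraries. The groups did not overlap, and AKI_PBS replicate 2 was the lowest of the 6. Its level was 2.17 ± 1.47 CPM in AKI_PBS and 20.6 ± 1.87 CPM in sham (SD, n = 3 each), and it fell by 89.4% (log2 fold change -3.24 ± 0.50, edgeR adjusted p = 0.000215). Upk3b, its close relative, had 36, 26 and 12 counts in AKI_PBS libraries and 320, 222 and 155 counts in sham libraries. Every AKI_PBS value lay far under every sham value, although the lowest library was replicate 3 and not replicate 2. Upk3b fell by 90.5% (-3.39 ± 0.48, edgeR adjusted p = 0.000103). Both calls held under every alternative setting and with any single library left out.

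The tetraspanin genes had smaller fitted differences. Upk1a had 89, 43 and 60 counts in AKI_PBS libraries and 178, 159 and 169 counts in sham libraries. The sham libraries were tightly grouped and all above the AKI_PBS libraries. Upk1a fell by 66.2% (-1.56 ± 0.54, edgeR adjusted p = 0.0301), a call lost without AKI_PBS replicate 2 or 3, without sham replicate 1 or 3, or with no low-count filter. Upk1b had 88, 8 and 71 counts in AKI_PBS libraries and 163, 106 and 150 counts in sham libraries. The groups did not overlap, but AKI_PBS replicate 2 stood far under the other 2, and the difference of -1.49 ± 0.86 did not pass (edgeR adjusted p = 0.172). Upk2, the partner of Upk1a, was barely detected, with 4, 1 and 6 counts in AKI_PBS libraries and 11, 12 and 6 counts in sham libraries. Its difference was -1.52 ± 0.62 (edgeR adjusted p = 0.0506), on the edge of the threshold.

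Among basal-cell genes, the keratins went opposite ways. Krt15 had 23, 1 and 25 counts in AKI_PBS libraries and 102, 89 and 66 counts in sham libraries, with no overlap. It fell by 82.8% (-2.54 ± 0.60, edgeR adjusted p = 0.00384), a call held under every alternative. Krt5 had 83, 38 and 31 counts in AKI_PBS libraries and 17, 6 and 22 counts in sham libraries. It was higher in every AKI_PBS library, most of all in replicate 1, and its log2 fold change was 1.57 ± 0.62 (edgeR adjusted p = 0.0488). The Krt5 call was lost without AKI_PBS replicate 1 (1.02), AKI_PBS replicate 2 (1.75), sham replicate 1 (1.66) or sham replicate 2 (1.16), and with RLE scaling or limma voom. Trp63 had 15, 12 and 11 counts in AKI_PBS libraries and 41, 33 and 14 counts in sham libraries, with sham replicate 3 near the AKI_PBS ones. Trp63 fell by 61.1% (-1.36 ± 0.44, edgeR adjusted p = 0.0191), a call lost without AKI_PBS replicate 2, sham replicate 1 or sham replicate 2. Only 3 of the 8 genes were called without AKI_PBS replicate 2, and likewise without sham replicate 1. Over all tested genes, leaving out 1 library gave 8028 to 9515 calls in this comparison, against 9488 with all libraries.

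**Figure D1:**
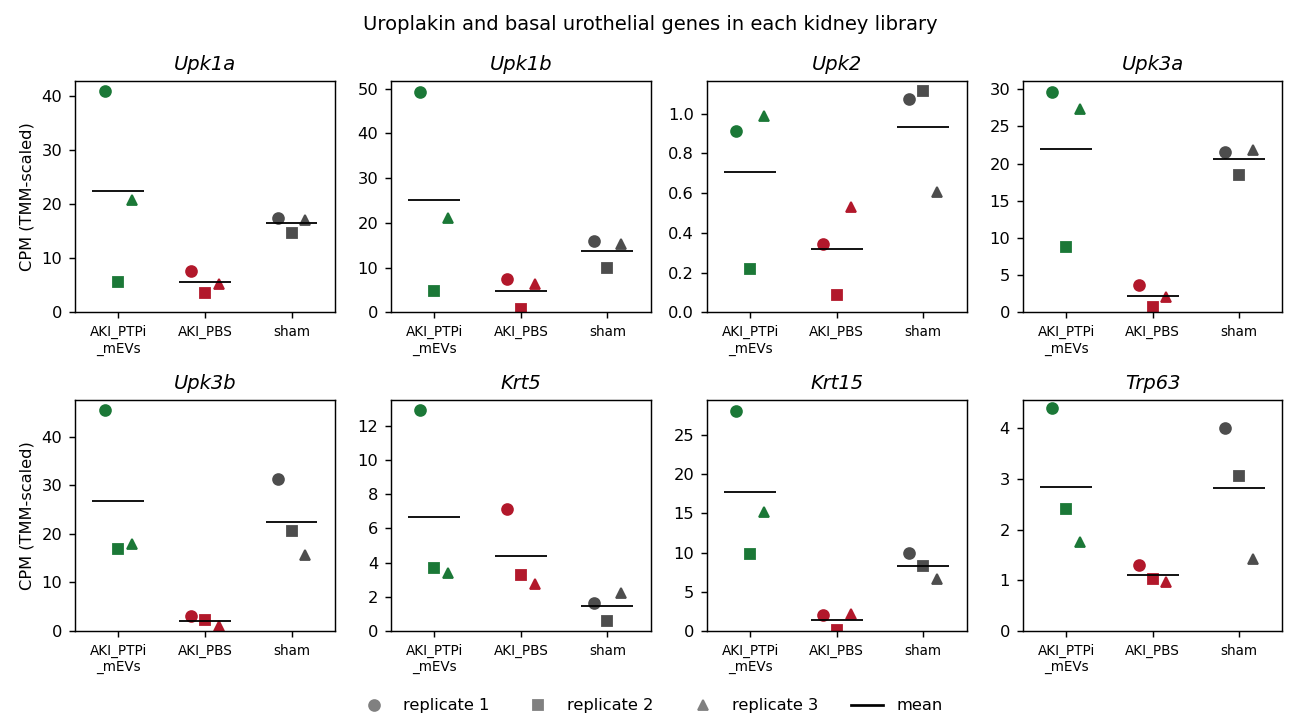
Level of each of the 8 genes in every library, in TMM-scaled CPM on linear axes that differ between panels, for AKI_PTPi_mEVs, AKI_PBS and sham; symbols mark the replicate number and lines the group mean (n = 3). Upk3a, Upk3b and Krt15 are lowest in AKI_PBS with no overlap with either other group, while Krt5 is lowest in sham.

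The promoters of the 2 uroplakins with the largest fall and of Krt5, the gene that rose, are shown to set side by side the sequences of genes that moved in opposite directions. Each is the 250 bases before the annotated start in RefSeq, mouse build GRCm38.p6, read 5′ to 3′ on the gene's strand. Upk3a lies at chr15:85016891-85017140 (+), Upk3b at chr5:136038246-136038495 (+) and Krt5 at chr15:101712906-101713155 (-). Capitals mark matches on either strand to GGCATGCCC, part of a p53-family recognition element, chosen after the sequences were seen.
Upk3a: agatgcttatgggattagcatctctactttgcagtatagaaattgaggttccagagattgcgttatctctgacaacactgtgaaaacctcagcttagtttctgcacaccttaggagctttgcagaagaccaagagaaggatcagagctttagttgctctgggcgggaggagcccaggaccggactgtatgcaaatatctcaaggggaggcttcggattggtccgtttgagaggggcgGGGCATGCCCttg
Upk3b: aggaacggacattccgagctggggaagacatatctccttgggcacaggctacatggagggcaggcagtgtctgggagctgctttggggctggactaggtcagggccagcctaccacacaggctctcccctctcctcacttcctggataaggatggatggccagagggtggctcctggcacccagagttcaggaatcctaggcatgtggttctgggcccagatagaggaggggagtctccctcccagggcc
Krt5: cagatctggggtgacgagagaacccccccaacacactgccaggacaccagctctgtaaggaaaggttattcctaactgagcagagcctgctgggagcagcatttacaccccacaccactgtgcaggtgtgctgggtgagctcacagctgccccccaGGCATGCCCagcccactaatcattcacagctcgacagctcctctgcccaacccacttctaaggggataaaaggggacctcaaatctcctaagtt
In Upk3a the capital run holds 2 overlapping matches, 1 on each strand, that begin 13 and 12 bases before the start. In Krt5 the single match begins 94 bases before the start. Neither Upk3b nor Upk1a, the only other member with a RefSeq promoter here, held a match. Of 32851 RefSeq promoter windows of the same length, 0.119% held a match. That share cannot test enrichment here, because GGCATGCCC was chosen after these promoters were read. Matches to AACCGGTT (grainyhead type), the PPAR-RXR direct repeat, the p53-family core and TATAAA on either strand numbered 0 in all 4 windows. The element was thus in 1 promoter of each direction of change, and a match is a description of letters, not of binding.

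Injured kidneys given the PTP1B siRNA vesicles had more RNA of most of the 8 genes than those given PBS. In AKI_PTPi_mEVs against AKI_PBS, 6 of the 8 genes rose (Upk1a, Upk1b, Upk3a, Upk3b, Krt15 and Trp63), none fell, and Upk2 and Krt5 did not pass. Of all tested genes, 51.1% were called, 25.4% as higher and 25.8% as lower. Counted in either direction, 6 called genes of 8 is again not far from that background. Groups did not overlap in 4 of the 8 genes, all higher, against 28.7% higher and 29.2% lower among all tested genes. The median log2 fold change of the 8 genes was 2.20, against -0.03 for all tested genes. This comparison shares the AKI_PBS libraries with the one against sham, so the low AKI_PBS values enter both.

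Upk3a had 324, 81 and 249 counts in AKI_PTPi_mEVs libraries, against 43, 9 and 23 counts in AKI_PBS libraries. Even the lowest vesicle library, replicate 2, was above the highest AKI_PBS library. Upk3a was 10.1-fold higher (log2 fold change 3.33 ± 0.50, edgeR adjusted p = 0.000235). Upk3b had 496, 154 and 163 counts in AKI_PTPi_mEVs libraries, against 36, 26 and 12 counts in AKI_PBS libraries. Replicate 1 stood well above the other vesicle libraries, which were close to each other. Upk3b was 12.5-fold higher (3.64 ± 0.48, edgeR adjusted p = 8.61e-05).

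Krt15 had 307, 90 and 138 counts in AKI_PTPi_mEVs libraries, against 23, 1 and 25 counts in AKI_PBS libraries, and was 12.4-fold higher (3.63 ± 0.59, edgeR adjusted p = 0.000442). Upk3a, Upk3b and Krt15 did not overlap between the groups and stayed called under every alternative, including one with both AKI_PTPi_mEVs replicate 1 and AKI_PBS replicate 2 left out. They were the only 3 of the 8 genes called in that setting. Trp63 had 48, 22 and 16 counts in AKI_PTPi_mEVs libraries, against 15, 12 and 11 counts in AKI_PBS libraries. The groups were separate but close, and the log2 fold change of 1.38 ± 0.44 (edgeR adjusted p = 0.0196) was 0.93 and no longer called without AKI_PTPi_mEVs replicate 1.

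Both tetraspanin genes were called with overlapping groups. Upk1a had 446, 51 and 189 counts in AKI_PTPi_mEVs libraries, against 89, 43 and 60 counts in AKI_PBS libraries (log2 fold change 2.02 ± 0.54, edgeR adjusted p = 0.00979). Upk1b had 538, 44 and 192 counts in AKI_PTPi_mEVs libraries, against 88, 8 and 71 counts in AKI_PBS libraries (2.38 ± 0.86, edgeR adjusted p = 0.0458). In both genes vesicle replicate 2 lay within the AKI_PBS range while replicate 1 was the highest of all 9 libraries. The Upk1b call was lost in 9 of 15 alternatives and its log2 fold change was 1.43 without AKI_PTPi_mEVs replicate 1. The Upk1a difference was 1.0 and not called with AKI_PTPi_mEVs replicate 1 and AKI_PBS replicate 2 both left out. Upk2 had 10, 2 and 9 counts in AKI_PTPi_mEVs libraries and 4, 1 and 6 in AKI_PBS libraries, too few to separate them (1.14 ± 0.65, edgeR adjusted p = 0.159). Krt5 had 141, 34 and 31 counts in AKI_PTPi_mEVs libraries and 83, 38 and 31 in AKI_PBS libraries (0.62 ± 0.55, edgeR adjusted p = 0.36). Replicate 1 was the highest library in each group, and the Krt5 difference was -0.29 without AKI_PTPi_mEVs replicate 1.

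**Figure D2:**
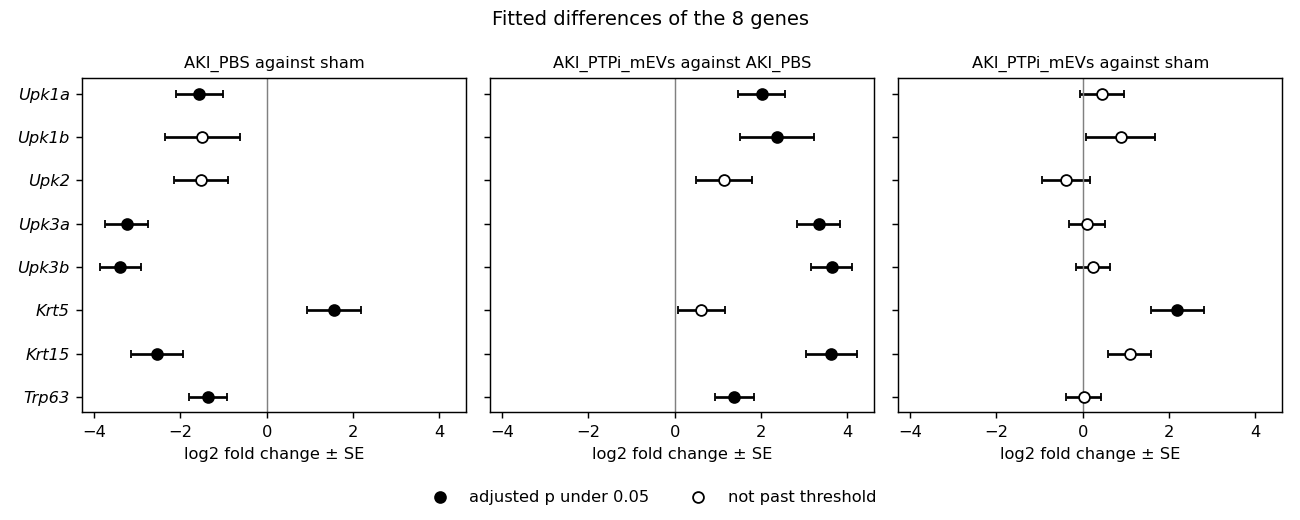
Log2 fold change with its standard error for each of the 8 genes (rows) in the 3 comparisons (panels) from the edgeR fit over all 9 libraries; filled points have an adjusted p under 0.05. Upk3a, Upk3b and Krt15 lie between -3.39 and -2.54 for AKI_PBS against sham and between 3.33 and 3.64 for AKI_PTPi_mEVs against AKI_PBS, while Krt5 alone lies to the right in all 3 panels and is filled in 2.

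Set against sham kidneys, AKI_PTPi_mEVs kidneys differed by the test in 1 of the 8 genes, Krt5. Of all tested genes, 13.2% were called in this comparison, 7.43% as higher and 5.79% as lower. Krt5 had 141, 34 and 31 counts in AKI_PTPi_mEVs libraries, against 17, 6 and 22 counts in sham libraries. Krt5 was the only 1 of the 8 genes without overlap, against 21.2% of all tested genes higher and 18% lower without overlap. Its log2 fold change was 2.19 ± 0.62 (edgeR adjusted p = 0.0359). The call was lost without AKI_PTPi_mEVs replicate 1 (1.27), without any single sham library (1.79 to 2.61) and with limma voom. Krt15 had a difference of 1.09 ± 0.50 (edgeR adjusted p = 0.173), with AKI_PTPi_mEVs replicate 2 inside the sham range. For the 5 uroplakins and Trp63 the differences lay between -0.38 (Upk2, SE 0.56) and 0.88 (Upk1b, SE 0.80), and groups overlapped in each. Standard errors of 0.39 to 0.80 for these 6 genes leave room for sizeable differences in either direction.

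Most of the 8 genes varied more between libraries of 1 group than the median tested gene did, in sham as well as after injury. That median was taken over all tested genes and not matched for level. Counting error adds to the spread of genes with few counts, such as Upk2, whose largest count was 12. How much of the spread is counting error was not tested. Within AKI_PBS only Trp63 was under the median of all tested genes (SD of log2 CPM 0.19, against 0.274). The summed uroplakin level was 166, 36.2 and 88.0 CPM in AKI_PTPi_mEVs libraries, 22.4, 7.44 and 15.2 CPM in AKI_PBS libraries, and 87.2, 64.8 and 70.4 CPM in sham libraries. Vesicle replicate 2 lay under all sham libraries and above all AKI_PBS libraries. Within AKI_PTPi_mEVs the SD of log2 CPM was 1.44 for Upk1a and 1.68 for Upk1b, against a median of 0.208 over all tested genes. Within sham it was 0.13 for both Upk1a and Upk3a, against a median of 0.187, and the other 6 genes were above that median, from 0.28 for Krt15 to 0.889 for Krt5. AKI_PTPi_mEVs replicate 1 was the highest library of its group in 7 of the 8 genes, against 32.9% of all tested genes, and replicate 2 was the lowest in 6 of 8, against 35% of all. AKI_PBS replicate 1 was the highest of its group in 6 of 8, against 31.8% of all, and sham replicate 1 in 5 of 8, against 37.4% of all.

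Genes of neighbouring tissue were read in the same libraries. One list held smooth muscle genes, from the pelvic and ureteral wall but also from arteries. In the vesicle group, 7 of its 9 genes were highest in replicate 1 and 7 of 9 were lowest in replicate 2. Of all tested genes, 32.9% and 35% were so. The other groups were less alike. In AKI_PBS, 8 of the 9 were highest in replicate 1, but 8 were lowest in replicate 3, against 3 of the 8 urothelial genes. In sham, 2 of the 9 were highest in replicate 1, against 5 of the 8 urothelial genes. Cnn1, a smooth muscle actin-binding protein, had 354, 49 and 170 counts in AKI_PTPi_mEVs libraries, 221, 61 and 46 in AKI_PBS libraries, and 106, 100 and 163 in sham libraries. The summed smooth muscle level was 237, 93.5 and 179 CPM in AKI_PTPi_mEVs libraries, 243, 170 and 150 CPM in AKI_PBS libraries, and 161, 164 and 189 CPM in sham libraries. In AKI_PBS against sham, 2 of the 9 genes rose and 0 fell, with a median of 0.31. In AKI_PTPi_mEVs against AKI_PBS, 0 rose and 2 fell, while 5 of the 9 had positive differences that did not pass and the median was 0.32.

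A list of collecting duct genes, drawn up for the inner medulla and papilla and called the papilla list here, was also low in AKI_PBS. Its genes, Aqp2 among them, are not confined to the papilla, so the list does not measure papillary tissue. In AKI_PBS against sham all 7 tested of 8 listed genes fell, with a median of -1.50, among them the urea transporter gene Slc14a2 (-1.69 ± 0.29). In AKI_PTPi_mEVs against AKI_PBS 6 of the 7 rose, with a median of 1.30 and Slc14a2 at 1.93 ± 0.29. The summed level of the papilla list was 2589, 2328 and 2410 CPM in AKI_PTPi_mEVs libraries, 999 (replicate 1), 744 and 1445 CPM in AKI_PBS libraries, and 3086, 2311 and 2101 CPM in sham libraries. The general kidney list, which shares Aqp2 with it, ran the same way: 7 of its 9 genes fell and 1 rose in AKI_PBS against sham (median -0.91), and 5 rose and 2 fell in AKI_PTPi_mEVs against AKI_PBS (median 0.67). In the vesicle group the papilla sum spread little, but most of it was Aqp2 (1456, 1479 and 1338 CPM). Among the 7 tested papilla genes, the highest vesicle library was 1.11 times (Aqp2) to 2.67 times (Aqp4) the lowest. Among the 5 uroplakins it was 2.71 times (Upk3b) to 10.3 times (Upk1b) the lowest. The part of pelvic and papillary tissue in the uroplakin differences was not tested.

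Of the mesothelium list, Bnc1, Muc16 and Calb2 had 0 counts in all 9 libraries and Lrrn4 had 0 to 3 counts a library. Other genes of the list were detected in every library, with 22 to 133 counts for Msln, 451 to 2316 for Gpm6a, 121 to 503 for Cldn15 and 15 to 253 for Aldh1a2. The summed level of the 11 listed genes was 168 to 210 CPM in AKI_PTPi_mEVs, 100 to 123 CPM in AKI_PBS and 190 to 275 CPM in sham. Much of that sum was Gpm6a, at 109 to 112, 38.5 to 61.6 and 130 to 235 CPM in the same order. Of the 5 tested genes of the list, 2 rose (Aldh1a2 and Wt1) and 2 fell (Gpm6a and Cldn15) in AKI_PBS against sham. In the skin and hair list, Krt2, Krtdap, Krt71 and Krt27 had 0 counts in all libraries and Krt1 had 0 to 1, while Flg had 0 to 9 and Lor 0 to 5. Krt10, the only skin gene tested, had 45 to 115 counts and was higher in AKI_PBS than in sham (0.67 ± 0.25, edgeR adjusted p = 0.0347). The summed skin level was 4.58 to 6.69 CPM in AKI_PTPi_mEVs, 7.49 to 10.5 CPM in AKI_PBS and 5.29 to 7.91 CPM in sham. The part of mesothelium or skin in the differences of the 8 genes was not tested.

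**Figure D3:**
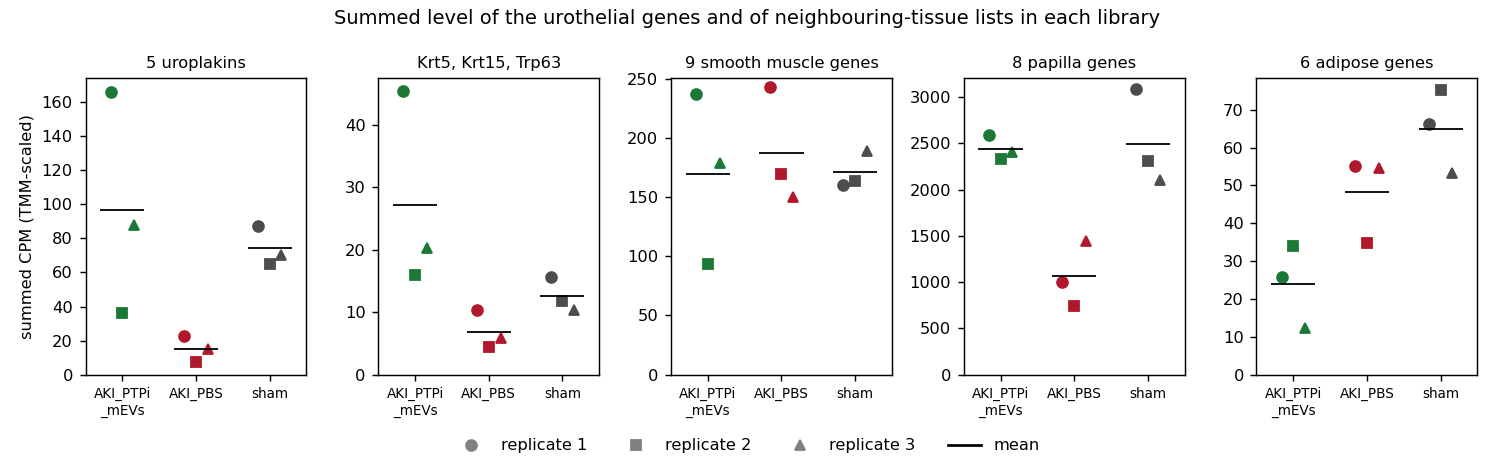
Summed TMM-scaled CPM in each library for the 5 uroplakins, for Krt5, Krt15 and Trp63, and for the smooth muscle, papilla and adipose lists, with linear axes that differ between panels; symbols mark replicate numbers and lines group means. The uroplakins and the papilla list are lowest in AKI_PBS, while the smooth muscle list has overlapping groups.

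Other urothelial genes did not move as one with the 8. Of 22 listed genes of luminal and intermediate cells, 20 were tested. In AKI_PBS against sham, 11 rose and 4 fell, with a median of 1.21. The genes that rose most clearly are keratins and a claudin that kidney tubule cells can also make: Krt20 (8.77 ± 0.46), Cldn4 (3.42 ± 0.23), Krt18 (2.12 ± 0.17) and Krt8 (2.18 ± 0.18). Krt20, a keratin of superficial urothelial cells, had 13920, 11998 and 9036 counts in AKI_PBS libraries and 29, 19 and 23 counts in sham libraries, the reverse of the uroplakin pattern. The 4 that fell, named after their values were seen, were Psca, Snx31, Gata3 and Fgfr3. Psca, a surface protein of urothelial and other epithelia, had 194, 33 and 86 counts in AKI_PBS libraries and 1291, 1152 and 786 counts in sham libraries (-3.53 ± 0.46, edgeR adjusted p = 8.37e-05). Snx31, a sorting nexin that binds uroplakins, had 67, 92 and 95 counts in AKI_PBS libraries and 240, 365 and 574 counts in sham libraries (-2.39 ± 0.43, edgeR adjusted p = 0.000717). Both lay lower in every AKI_PBS library than in any sham library. Gata3, a transcription factor of urothelium and collecting duct, fell by 41.6%, and the receptor gene Fgfr3 fell by 42.4%.

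In AKI_PTPi_mEVs against AKI_PBS, 3 of the 20 luminal genes rose and 10 fell, with a median of -0.41. Cldn4 (-2.28 ± 0.21), Krt20 (-2.78 ± 0.33), Krt18 (-1.06 ± 0.16) and Foxq1 (-2.33 ± 0.39) fell. Krt13, named after its values were seen, fell as well (-4.22 ± 0.72), to 2, 0 and 0 counts in AKI_PTPi_mEVs libraries. The 3 that rose, again named after their values were seen, were Psca (2.45 ± 0.45), Gata3 (0.77 ± 0.24) and Upk3bl, a uroplakin-like gene (1.38 ± 0.54). Psca had 501, 390 and 548 counts in AKI_PTPi_mEVs libraries, above every AKI_PBS library, and its highest vesicle library was replicate 3. Snx31 had 262, 59 and 130 counts in AKI_PTPi_mEVs libraries and did not pass (1.03 ± 0.44, edgeR adjusted p = 0.0679). In AKI_PTPi_mEVs against sham, 6 luminal genes rose and 0 fell.

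Of 20 listed basal-cell and hemidesmosome genes, 14 were tested. In AKI_PBS against sham, 7 rose and 4 fell, with a median of 0.59. Sfn (4.15 ± 0.28), Itga6 (2.19 ± 0.16) and Cd44 (2.66 ± 0.32), all of which injured tubules can also make, rose. Those that fell, named after their values were seen, were Lama3 (-1.59 ± 0.20), Ngfr (-2.51 ± 0.50), Dst (-0.58 ± 0.15) and Trim29. Trim29, a basal epithelial protein, had 1, 0 and 1 counts in AKI_PBS libraries and 2, 13 and 8 counts in sham libraries. In AKI_PTPi_mEVs libraries Trim29 had 25, 7 and 12 counts. In AKI_PTPi_mEVs against AKI_PBS, 4 basal genes rose and 5 fell, with a median of -0.15; the 4 were Lama3, Ngfr, Trim29 and Krt14.

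Krt14, the usual pairing partner of Krt5 in basal cells, had 34, 34 and 35 counts in AKI_PTPi_mEVs libraries, 17, 14 and 15 counts in AKI_PBS libraries, and 13, 5 and 7 counts in sham libraries. The vesicle group lay above both others and varied little. Krt14 was higher in AKI_PTPi_mEVs than in AKI_PBS (1.41 ± 0.33, edgeR adjusted p = 0.00348) and than in sham (2.11 ± 0.36, edgeR adjusted p = 0.00303). Its difference between AKI_PBS and sham was 0.70 ± 0.39 (edgeR adjusted p = 0.14). Krt6a, a near relative of Krt5, and the desmosomal gene Dsc3 had 0 counts in all 9 libraries.

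**Figure D4:**
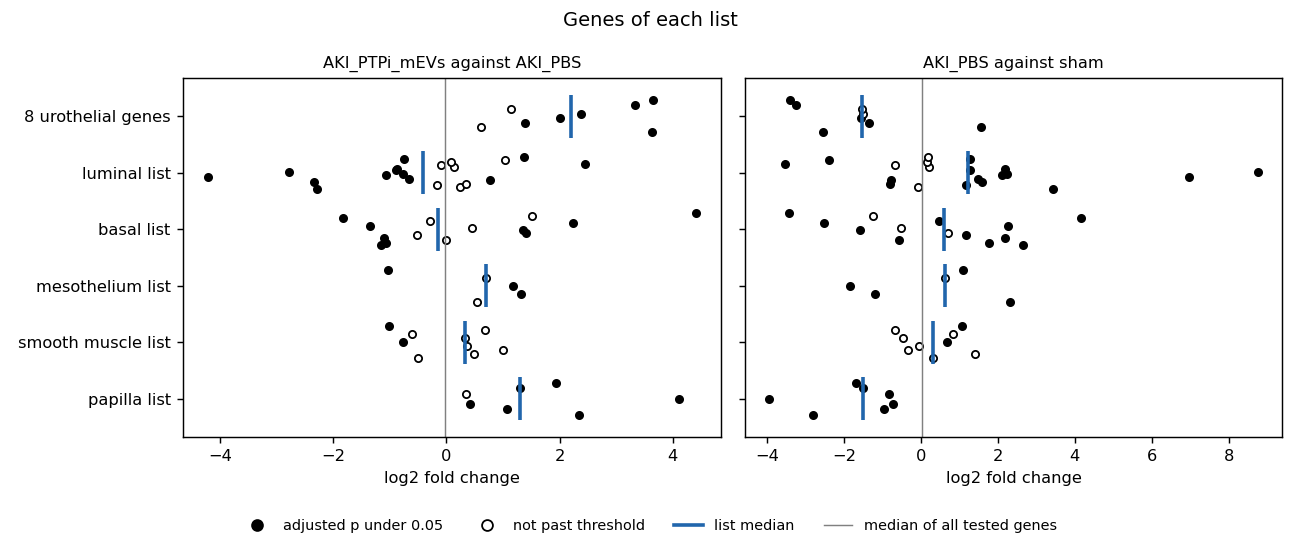
Log2 fold change of each tested gene (points, jittered vertically) in the 8 urothelial genes and in 5 lists, for AKI_PTPi_mEVs against AKI_PBS (left) and AKI_PBS against sham (right); filled points have an edgeR adjusted p under 0.05 and blue bars are list medians. The 8 genes and the papilla list have medians of 2.20 and 1.30 on the left and -1.54 and -1.50 on the right, while the luminal list has -0.41 on the left and 1.21 on the right.

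The proportions of the 8 genes to each other also differed between groups. The ratio of Upk1a to Upk3a counts was 1.38, 0.63 and 0.759 in AKI_PTPi_mEVs libraries, 2.07, 4.78 and 2.61 in AKI_PBS libraries, and 0.805, 0.799 and 0.786 in sham libraries. Sham libraries held it nearly constant, and every AKI_PBS library exceeded every library of the other groups. Upk3a to Upk3b, by contrast, overlapped between all groups. Krt5 to Krt15 was 0.459, 0.378 and 0.225 in AKI_PTPi_mEVs libraries, 3.61, 38 and 1.24 in AKI_PBS libraries, and 0.167, 0.0674 and 0.333 in sham libraries. The value of 38 rests on 1 Krt15 count.

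Leaving out the barely detected Upk2, 12 of 21 pairs (57.1%) had ratios that did not overlap between AKI_PBS and sham, against 61.8% of all pairs of tested genes. For AKI_PTPi_mEVs against AKI_PBS it was 10 of 21 (47.6%), against 56.9% of all pairs, and for AKI_PTPi_mEVs against sham 8 of 21 (38.1%), against 38.7% of all pairs. These shares are near those of any gene pair or somewhat under them.

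**Figure D5:**
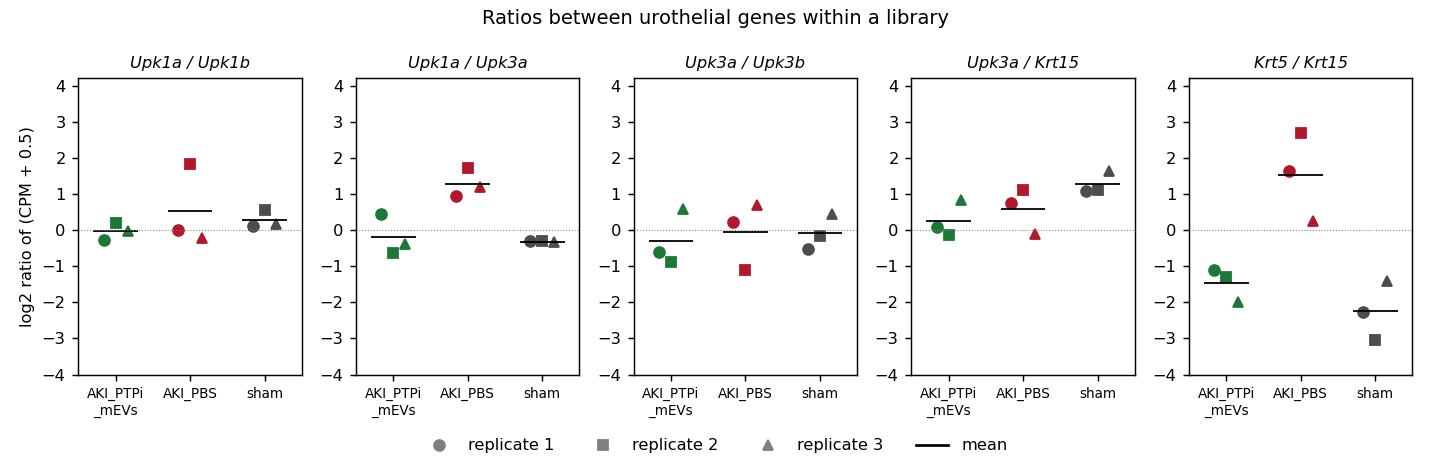
Log2 ratio of (CPM + 0.5) between pairs of the 8 genes in each library, for AKI_PTPi_mEVs, AKI_PBS and sham; symbols mark replicate numbers and lines group means. Upk1a to Upk3a and Krt5 to Krt15 are highest in AKI_PBS with no overlap, while Upk3a to Upk3b overlaps in all groups.

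Per kilobase of exon (GENCODE M21 exon lengths, an older annotation than that of the counts), Upk3a was the most abundant of the 8 genes in AKI_PTPi_mEVs with 20.1 CPM per kb, against 1.98 CPM per kb in AKI_PBS and 18.9 CPM per kb in sham. Upk1a had 15.8 CPM per kb in AKI_PTPi_mEVs, 3.90 CPM per kb in AKI_PBS, where it was the highest of the 8, and 11.6 CPM per kb in sham. Upk2 was far under its partner, at 0.653 CPM per kb in AKI_PTPi_mEVs, 0.295 in AKI_PBS and 0.861 in sham. Krt5 was above Krt15 per kilobase only in AKI_PBS, where they had 1.99 and 0.806 CPM per kb. The exons of Krt5 overlap an annotated opposite-strand miRNA gene model by 129 bases, and the counting strand is not stated, so reads there cannot be assigned.

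Profiles over the 9 libraries were compared with those of 13417 other genes by the root mean square difference of centred log2 CPM. Closest to Upk1a was Aldh3b2 (0.404), followed by Gata5 and Cap2. Closest to Upk1b was Ly6d (0.56), followed by Aldh3b2 and Igfbp2. Closest to Upk3a were Igfals (0.473), Sucnr1 and Acmsd, and closest to Upk3b were Elf5 (0.331), Aqp4 and Wdr78. Aldh3b2 thus stood beside both tetraspanin genes, and Aqp4, a collecting duct water channel of the papilla list, beside Upk3b. Closest to Krt15 were Gsdmc2 (0.536), Ppp1r3c and Ifit3b, and closest to Trp63 were Rem1 (0.207), Cdh11 and Pla2g4a. Closest to Krt5 were Dclk1 (0.444) and Abcc3, and closest to Upk2 were Kcnj5 (0.254), Gucy1a1 and Slc22a8. Upk1a was nearer to Upk1b than all but 1 other gene, and Upk3a likewise was nearer to Krt15 than all but 1. Krt5 stood apart, with 10258 genes nearer to it than Trp63, the nearest of the other 7.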

How the data were processed

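Kidney RNA was sequenced in 9 libraries. The deposited values are whole-number counts per gene made by the authors with STAR and HTSeq (versions not stated), per the submitters' processing notes. Phenol-chloroform RNA and a Tn5-based library kit were used, per the labels' protocols. The notes name a human build, GRCh38.p14, although all 56923 identifiers are mouse Ensembl identifiers. The counting strand is not given in the sources used here. Group labels came from the treatment field, since 1 title spells the vesicles differently.

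Symbols were matched for 52073 identifiers. Low counts were removed with filterByExpr of edgeR 4.0.16 (R 4.3.3), which kept 17036 genes. After TMM scaling, a robust quasi-likelihood fit of the 3 group means used all 9 libraries (6 residual degrees of freedom). Calls were made at a Benjamini-Hochberg adjusted p under 0.05 over all tested genes, and lists are described by counts and medians only. Alternatives used RLE factors, library totals, DESeq2 1.42.0, limma 3.58.1 voom, other filters, a replicate block, only 2 groups, leaving out each library in turn and, added after seeing the data, AKI_PTPi_mEVs replicate 1 and AKI_PBS replicate 2 both left out. The fit was tested on simulated data. Values after ± are SE for log2 fold changes and SD for CPM. Ratios use (CPM + 0.5) where drawn on a log2 scale and counts otherwise.

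The 8 genes and the lists were chosen with earlier results of these data known. Named list genes are up to 4 per list with the smallest adjusted p, plus undetected ones; for each of the 8 genes the 3 nearest profiles are named among genes whose average log2 CPM is not under 0, gene models named Gm or Rik left out. Some genes that fall under this rule are not reported here. Genes named outside this rule are said to be so or illustrate a list.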

Additional observations from a re-analysis of the deposited data

How the results depend on the processing

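Over the 15 alternatives, Upk3a, Upk3b and Krt15 kept direction and call in AKI_PBS against sham (log2 fold changes -3.88 to -2.83, -3.77 to -3.07 and -3.31 to -1.97) and in AKI_PTPi_mEVs against AKI_PBS (2.63 to 3.98, 3.03 to 4.02 and 2.55 to 4.31). Of all values of single genes over the alternatives, 294 kept direction and side of the threshold, 34 lost and 6 gained the call, and 18 changed sign. The number of the 8 genes called was 3 to 6 with 1 library left out for AKI_PBS against sham (6 with all), 4 to 6 for AKI_PTPi_mEVs against AKI_PBS, and 0 to 1 for AKI_PTPi_mEVs against sham. Over all tested genes, calls with 1 library left out were 8028 to 9515 for AKI_PBS against sham (9488 with all). For AKI_PTPi_mEVs against AKI_PBS they were 7337 to 8673 (8711 with all). With AKI_PTPi_mEVs replicate 1 and AKI_PBS replicate 2 both left out, 3 were called in AKI_PTPi_mEVs against AKI_PBS and 0 in AKI_PTPi_mEVs against sham, where limma voom also called 0. The cause was not tested.

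Over all genes, asking for an absolute log2 fold change of at least 1 left 5227, 4570 and 987 calls in AKI_PBS against sham, AKI_PTPi_mEVs against AKI_PBS and AKI_PTPi_mEVs against sham. In the last, leaving out 1 library gave 878 to 1771 calls and leaving out both libraries 1390. Scaling by library totals moved the median of all genes in AKI_PTPi_mEVs against AKI_PBS by -0.11.

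Signs changed where differences were not called. For Krt5 in AKI_PTPi_mEVs against AKI_PBS the log2 fold change was -0.29 to 1.18 with 1 library left out and -0.49 with both. In AKI_PTPi_mEVs against sham, leaving out 1 library gave -0.32 to 0.90 for Upk1a, -0.074 to 1.36 for Upk1b, -0.66 to 0.0074 for Upk2, -0.19 to 0.46 for Upk3a, -0.37 to 0.56 for Upk3b and -0.44 to 0.36 for Trp63. With both left out the values were -0.33 for Upk1a, -0.086 for Upk1b, -0.20 for Upk3a, -0.38 for Upk3b and -0.45 for Trp63. Upk3a was -0.072 with limma voom and Trp63 was -0.011 with library totals.

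Same-numbered libraries deviated together with correlations of only -0.187 to 0.111, against -0.171 to 0.146 for differently numbered ones. No pairing by replicate number was thus seen, although 3 libraries per group are too few to exclude it. With the replicate block, 7, 6 and 1 of the 8 genes were called in AKI_PBS against sham, AKI_PTPi_mEVs against AKI_PBS and AKI_PTPi_mEVs against sham. Upk1b was then called in AKI_PBS against sham (-1.87), and Upk3a was -0.0898 in AKI_PTPi_mEVs against sham. Over the alternatives, calls among all tested genes ranged from 5227 to 10712, 4570 to 9563 and 878 to 3259 in the same order of comparisons.

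Depth limits Upk2, whose largest count was 12, and Trp63, whose largest was 48.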

Other observations

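Genes of the mesothelium list moved apart from each other. Aldh1a2, which makes retinoic acid, was higher in AKI_PBS than in sham by 2.31 ± 0.51 on the log2 scale (edgeR adjusted p = 0.00221), and in AKI_PTPi_mEVs than in sham (2.85 ± 0.51, edgeR adjusted p = 0.00436). Gpm6a, a membrane glycoprotein gene also known from neurons, fell in AKI_PBS against sham (-1.84 ± 0.22, edgeR adjusted p = 2.07e-05) and rose in AKI_PTPi_mEVs against AKI_PBS (1.18 ± 0.22, edgeR adjusted p = 0.000661). Msln, which encodes mesothelin, averaged 8.03 ± 3.85 CPM in AKI_PTPi_mEVs, 4.95 ± 1.78 CPM in AKI_PBS and 3.18 ± 0.888 CPM in sham (SD, n = 3 each), and was called in AKI_PTPi_mEVs against sham alone (1.34 ± 0.39, edgeR adjusted p = 0.0385); whether its change differs between comparisons was not tested.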
